A study of Xenopus tropicalis with 12 samples.

Results

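The animal cap and the vegetal mass are the poles of the early gastrula of the frog Xenopus tropicalis, and their transcription factor (TF) mRNAs were compared by DNA-binding domain class. They account for 4 of the 12 polyA+ RNA libraries of the series. Each region had 2 libraries, from embryos of 2 clutches at Nieuwkoop and Faber stages 10 to 10.25, and about 30 explants were pooled for each library. The other libraries are of the dorsal, lateral and ventral marginal zones and of whole sibling embryos. No treatment or allele is stated for any embryo. Replicate 1 and replicate 2 are different clutches, and an animal cap is set against the vegetal mass of its own clutch. Of the 26550 gene models measured, 1197 are TFs of the study's catalogue. The other 43 of the 1240 entries read from its listing had no gene model in the count table or repeated an identifier. Expected counts, the reads that the authors' software assigned to genes, summed to 27126407 and 15030188 in the animal caps, against 28403752 and 16561057 in the vegetal masses. At these depths 3 counts equalled 0.114 and 0.184 TPM (a transcript level corrected for length and scaled to the same total in every library) in the animal caps for a gene of median length, and 0.11 and 0.163 TPM in the vegetal masses.

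The animal cap is the roof of the blastocoel and gives rise to epidermis and nervous system, while the yolky vegetal mass gives rise to the endoderm of the gut. TFs inherited from the egg and TFs switched on in the blastula act at the poles, and signals of the Nodal family from the vegetal cells induce mesoderm in the ring between them. TFs are grouped by the protein fold that contacts DNA. Homeobox proteins use a helix-turn-helix, C2H2 proteins a row of zinc fingers, and basic helix-loop-helix (bHLH) and bZIP proteins bind as dimers. POU proteins join a homeodomain to a second DNA-binding domain, GATA proteins use zinc fingers of another kind, forkhead and Ets proteins use winged helix-turn-helix folds, and Sox proteins belong to the HMG-box class.

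The regions were compared with TF lists for each germ layer, chosen with earlier results of these data known. The endoderm list holds sebox and mxtx1, which the study reported as vegetal and marginal from these same libraries. It also holds sox17a, mixer and foxa1, which the study used to judge its dissections. For the same purpose the study used foxi1 and foxi2 of the ectoderm list, and gsc and t of the mesoderm list. The counts are therefore a description and no independent check. Of 21 ectoderm TFs 18 were higher and 3 lower in animal caps, with a median log2 fold change of 2.59. Of 27 tested endoderm TFs none was higher and 26 were lower (median -6.59), and otx1 did not pass the test. Their summed level was 465 and 207 TPM in the animal caps, against 15861 and 17223 TPM in the vegetal masses. In the marginal zones this endoderm list summed to between 4200 and 7730 TPM, so it does not mark the vegetal mass alone. Of 15 tested mesoderm TFs 3 were higher and 9 lower (median -3.10), and the list summed to 218 and 105 TPM in the animal caps, against 693 and 887 TPM in the vegetal masses and from 1330 to 1900.3 TPM in the marginal zones. The summed level in animal cap replicate 1 was thus 2.24 times that of replicate 2 for endoderm TFs and 2.08 times for mesoderm TFs. Single genes made up much of these sums. Vegt, of the endoderm list, had 197.85 and 53.72 TPM in the animal caps. The mesoderm gene not, among the 3 that were higher in animal caps, had 143.88 and 75.04 TPM there. In vegetal masses it had 49.7 and 67.6 TPM, and its call was lost under other settings, as given below. Gene by gene, animal cap replicate 1 exceeded replicate 2 for 25 of 27 endoderm TFs detected in animal caps and for 12 of 16 mesoderm TFs. Bix1.3 was the only endoderm TF at 0 in both animal caps. Of 15 immediate-early genes, which respond to handling, 3 were higher (junb, atf3 and jund) and 5 lower (fos, fosl2, egr1, nr4a1 and nr4a2), and the list summed to 49.1 and 36.7 TPM in animal caps, against 60.0 and 34.7 TPM in vegetal masses. Over all genes tested, 19.5% were higher and 21.2% lower in animal caps. The 3 of 15 that were higher in the mesoderm and immediate-early lists are near that share, and the immediate-early counts are not read as a result. The part of carried-over cells or of handling in any result was not tested.

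More TFs were called lower than higher in animal caps, but the split was near even without vegetal mass replicate 1. The median log2 difference of TFs was -0.17, and -0.06 without that library. Of the 15727 genes with enough counts to be tested, 3059 (19.5%) were higher and 3334 (21.2%) lower in animal caps at the threshold of 0.05 on the adjusted p. Every adjusted p below is from the quasi-likelihood test of edgeR with the clutch as a block and Benjamini-Hochberg adjustment, unless another fit is named, and SE is the standard error of a log2 fold change. Of the 915 TFs tested, 192 (21.0%) were higher and 274 (29.9%) lower. The other 282 TFs were below the filter on low counts and summed to at most 0.00897% of the TPM of any of the 4 libraries. All 466 called TFs had the same sign in both clutches, which a call made on both clutches together favours. The difference itself differed between clutches for 4 TFs (0.437%), against 0.108% of all genes. The median absolute log2 difference was 0.69 for TFs and 0.49 for all genes tested. Among the TFs higher in animal caps 18 differed at least 16-fold and 36 by 4 to 16-fold. Among those lower, 66 differed at least 16-fold and 41 by 4 to 16-fold.

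These counts depend on the clutch block and on the scaling. Without the block 53 TFs were higher and 91 lower, against 3.64% and 4.40% of all genes, and all of these were among the calls above. Among TFs described below, the calls of pou4f2 (adjusted p = 0.16 without the block), dlx3 (0.081), foxi3.1 (0.061), pou2f3 (0.0501), tfcp2 (0.16), irx1 (0.17), tfap2b (0.10), smad3 (0.19), klf5 (0.053), kdm5c (0.051), mta2 (0.66), hesx1 (0.42), ventx1.2 (0.093), foxj1 (0.064), cdx4 (0.23) and hoxd1 (0.27) were lost, and further losses are given beside the gene. Of the 8 immediate-early calls above, 7 were lost, with fos as the exception. The call of the mesoderm gene not was also lost without the block (adjusted p = 0.10, edgeR). It was lost in edgeR with library size in place of TMM (0.057) and with only the 4 libraries of both regions (0.098) as well. With library size in place of TMM the median of all genes moved by -0.16 on the log2 scale, and the split of called TFs was 160 higher and 335 lower, against 14.7% and 26.7% of all genes. The split of all called genes was then 35.6% higher, against 47.8% with TMM.

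A stricter list took called genes whose mean TPM differed 2-fold or more and reached 1 TPM in the richer region. It held 92 TFs enriched in animal caps and 188 enriched in vegetal masses. These are 10.1% and 20.5% of the TFs tested, while 7.05% and 12.1% of all genes met the same limits. TFs made up 5.82% of the genes tested, 8.30% of the genes enriched in animal caps and 9.88% of those enriched in vegetal masses. Both animal caps lay above both vegetal masses in TPM for 88 of the 92, and both lay below for 174 of the 188. The lists were chosen on the same levels, so this separation is a description and no support for them. Over all TFs tested, 19.2% lay above in this way and 36.0% below, and over all genes tested 17.2% and 27.0%. The plot of mean levels shows the vegetal TFs as the larger cloud, with many members near the detection limit in animal caps.

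**Figure D1:**
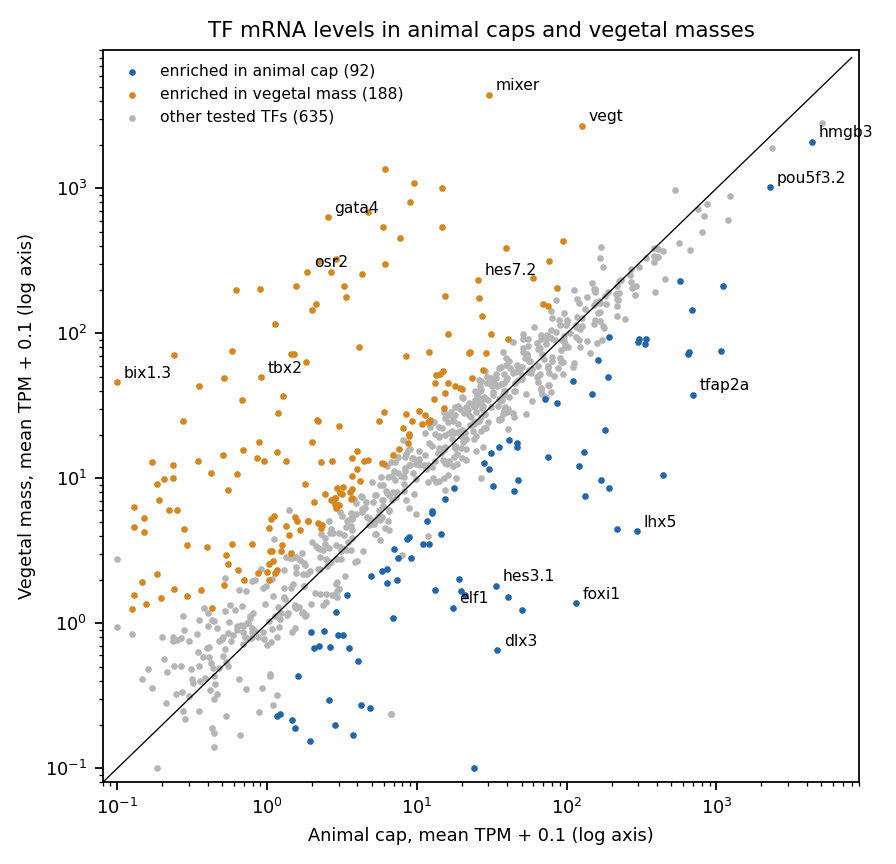
Mean TPM of 915 tested TFs in animal caps (horizontal) and vegetal masses (vertical), both with 0.1 added and on log axes. Each point is a TF and the line marks equal levels. The 92 TFs enriched in animal caps lie below the line and the 188 enriched in vegetal masses above it.

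The animal list was led by homeobox, forkhead and grainyhead genes of the ectoderm. The LIM homeobox gene lhx5 (Xetrov90002706), which acts in the forebrain later in development, had 230 and 358 TPM in animal caps, against 3.13 and 5.29 TPM in vegetal masses. Its log2 fold change was 6.29 (SE 0.19, adjusted p = 1.7e-07), and the regions were far apart in both clutches. The Distal-less genes dlx3 (Xetrov90024886) and dlx5 (Xetrov90030194) act in epidermis and at the border of the neural plate. Expression of dlx3 was 18.6 and 49.95 TPM in animal caps, against 0.130 and 0.970 TPM in vegetal masses. That of dlx5 was 169 and 266 TPM in animal caps, against 6.02 and 2.74 TPM in vegetal masses. Their log2 fold changes were 6.27 and 5.58 (SE 0.45 and 0.49).

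Grainyhead-like grhl3 (Xetrov90004885) controls the epidermal barrier. It had 431 and 443 TPM in animal caps, against 16.4 and 4.67 TPM in vegetal masses, with a log2 fold change of 5.58 (SE 0.49, adjusted p = 0.00019). The TF tp63 (Xetrov90014441), which maintains basal epidermal cells, was a low-level gene with a clear difference, at 4.86 and 4.62 TPM in animal caps, against 0.260 and 0.0600 TPM in vegetal masses. The PR-domain zinc finger prdm14 (Xetrov90016898), known for pluripotency and germ cells in mice, had 37.1 and 63.1 TPM in animal caps, against 1.23 and 1.05 TPM in vegetal masses. Forkhead gene foxi1 had a log2 fold change of 6.67 (SE 0.53). Its relative foxi3.1 (Xetrov90000422) had at most 2 counts in either vegetal mass, so that its level in animal caps, 4.35 and 2.95 TPM, was at least 10.2-fold higher.

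The most abundant TFs higher in animal caps were the chromatin proteins hmgb2 (Xetrov90000786) and hmgb3 (Xetrov90020498), the cold-shock protein ybx1 (Xetrov90018683), the pluripotency factors pou5f3.2 (Xetrov90019679) and pou5f3.3 (Xetrov90019681), and id3 (Xetrov90004815), an inhibitor of bHLH proteins. Hmgb3 had 3879 and 4770 TPM in animal caps, against 1993 and 2220 TPM in vegetal masses. Pou5f3.2 had 1927 and 2661 TPM in animal caps, against 949 and 1098 TPM in vegetal masses. The 6 log2 fold changes ran from 0.44 (ybx1) to 1.28 (pou5f3.2). Without the clutch block none of these 6 passed the test, with adjusted p from 0.12 to 0.62. In bulk RNA, fewer cells of a type and less RNA per cell cannot be told apart.

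The vegetal list was led by mesendoderm homeobox genes that were nearly silent at the animal pole. The Mix family gene bix1.3 (Xetrov90012976) had 49.7 and 42.5 TPM in vegetal masses and 0 counts in both animal caps. It was at least 98.4-fold lower in animal caps, taking 3 counts in each library as the limit of detection and the smaller of the values of the clutches. Bix1.6 (Xetrov90012982) had 1.04 and 0 TPM in animal caps, against 185 and 215 TPM in vegetal masses. Reads that fit several of these near-identical genes were shared among them by the authors' software. The level of each copy, and its difference between regions, is therefore uncertain. The copy bix1.4, below the filter on low counts, had 0.470 and 1.17 TPM in animal caps and 0 TPM in both vegetal masses, opposite to bix1.3 and bix1.6.

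The zinc finger osr2 (Xetrov90017042), of the odd-skipped family known from the kidney, had 2.49 and 1.03 TPM in animal caps, against 254 and 278 TPM in vegetal masses, and fell by 7.04 on the log2 scale (SE 0.25, adjusted p = 1.9e-07). The presomitic mesoderm gene msgn1 (Xetrov90015181), a bHLH factor, had at most 1 count in either animal cap and 9.24 and 16.7 TPM in vegetal masses, which makes it at least 33.7-fold lower in animal caps. Of the 5 regions, msgn1 was highest in a marginal zone and not in the vegetal mass. No library of one region reached the other in any of these genes.

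**Figure D2:**
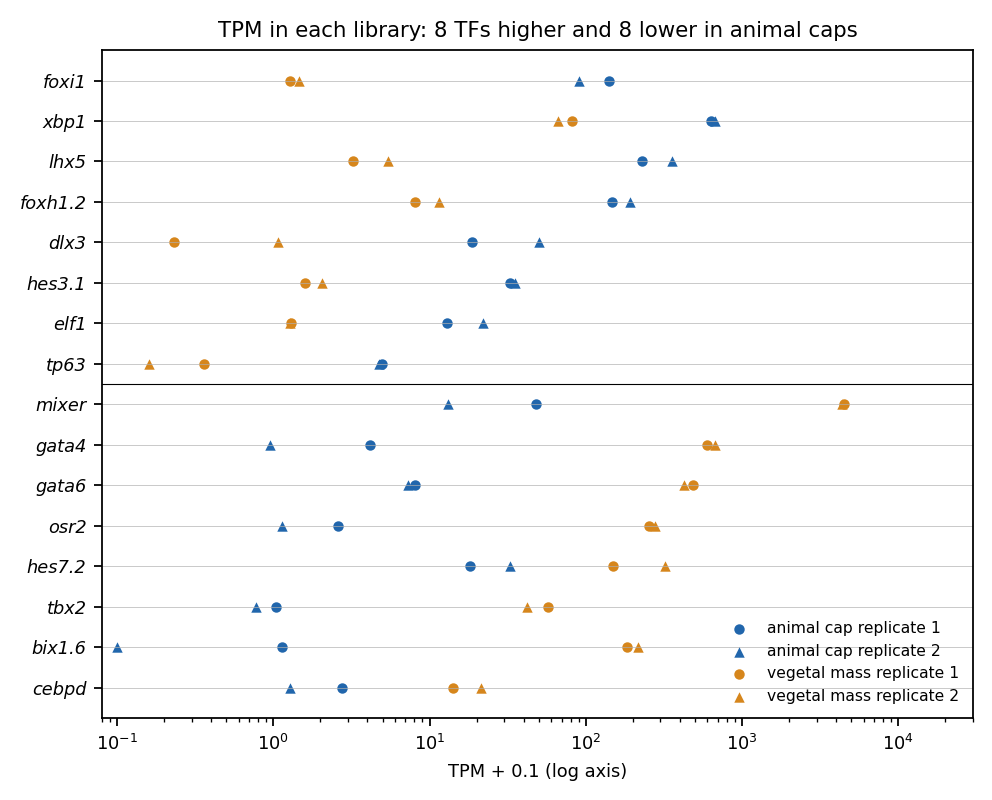
TPM of 16 TFs in each of the 4 libraries, with 0.1 added and on a log axis, for 8 TFs higher (above the line) and 8 lower (below it) in animal caps. Points of a region lie apart from those of the other region for every gene shown. Libraries of the same region differ several-fold for some genes, such as bix1.6 (1.04 and 0 TPM) and mixer (47.8 and 13.0 TPM) in animal caps.

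Domain classes differed in which side their members fell on. Classes were set from the Pfam domains that the catalogue lists for each TF. Of the 44 classes, 36 had 3 or more tested members and together held 902 of the 915 TFs tested. Of the 18 classes with 10 or more, 8 had more members lower than higher in animal caps, 6 had more higher and 4 had as many of each, but this tally turned with the processing. It was 11, 3 and 4 with library size in place of TMM, 7, 9 and 2 with DESeq2 and 6, 8 and 4 without the clutch block, and 55 of 72 counts of called members by class moved by more than 1.5 times without the block. Homeobox TFs (2 higher and 32 lower), T-box TFs (0 and 5) and GATA TFs (0 and 5) were mostly lower also without the block. C2H2 and homeobox TFs made up 380 of the 915 TFs tested, and 96 of the 188 enriched in vegetal masses but 28 of the 92 enriched in animal caps. Outside these classes 134 TFs were higher and 136 lower in animal caps, of 535 tested, in the fit with the block and TMM. With library size all called TFs split into 160 higher and 335 lower. C2H2 TFs gave 42 and 115 of these and homeobox TFs 6 and 53, so more TFs outside these classes were then lower than higher. The plot of called members by class gives the shares against those of all genes, 19.5% higher and 21.2% lower.

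**Figure D3:**
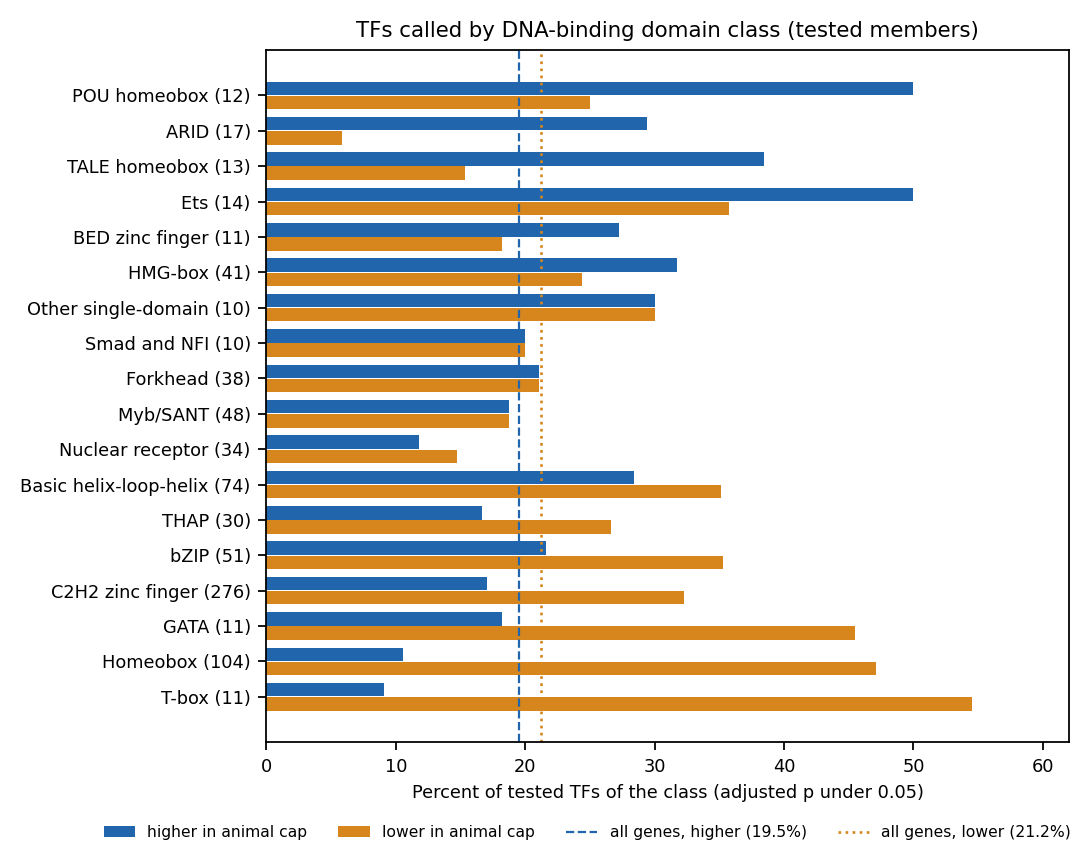
Percent of the tested TFs of each class that were higher (blue) or lower (orange) in animal caps at an adjusted p under 0.05, for classes with 10 or more tested members (number in brackets). Dashed and dotted lines mark the share of all genes tested, 19.5% higher and 21.2% lower. T-box, homeobox and GATA TFs had the largest shares lower, and POU and Ets TFs the largest shares higher.

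Homeobox TFs were the class furthest to the vegetal side among the large ones. Of 181 members 104 were tested, of which 11 (10.6%) were higher and 49 (47.1%) lower in animal caps. The median log2 fold change was -1.09, or -1.11 with genes at the limit of detection set to their bound, against -0.02 for all genes. Enriched lists held 6 in animal caps (lhx5, dlx5, dlx3, hoxd1, cdx4 and hesx1) and 42 in vegetal masses. Beyond the Mix, Ventx and organizer genes at the top, 18 of the 42 had means under 20 TPM. These include genes known for later roles in eye, brain and pancreas, such as six6, rax, tlx3, nkx2-2 and nkx6-2, which were picked after their values were seen.

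Nkx2-2 (Xetrov90013298) had 0.0600 and 0 TPM in animal caps, against 7.71 and 4.72 TPM in vegetal masses, at least 15.1-fold lower in animal caps. Of the 18 low-level genes 7 had at most 3 counts in each animal cap, and 13 averaged 1 TPM or more in whole embryos.

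T-box and GATA TFs, classes with known roles in mesoderm and endoderm, leaned the same way with few members. Of 11 tested T-box TFs 6 were lower and 1 higher, with a median of -2.65. Tbx2 (Xetrov90005516), a T-box repressor, had 0.940 and 0.680 TPM in animal caps, against 57.1 and 42.1 TPM in vegetal masses (log2 fold change -5.78, SE 0.19, adjusted p = 1.8e-07). The only T-box TF that was higher was mga (Xetrov90021600), a large protein that also pairs with Max, with a log2 fold change of 0.78. Its call was lost without the clutch block (adjusted p = 0.68), without animal cap replicate 1 or 2 (0.078 and 0.14) and without vegetal mass replicate 2 (0.061).

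Of 11 GATA-class TFs 5 were lower, and these were gata2 to gata6, the GATA factors proper. Gata6 (Xetrov90016691), a regulator of endoderm and heart, had 7.95 and 7.17 TPM in animal caps, against 487 and 423 TPM in vegetal masses (log2 fold change -5.77, SE 0.13, adjusted p = 2.1e-08). Gata4 (Xetrov90026121), with like roles, had 4.04 and 0.850 TPM in animal caps, against 600.4 and 671 TPM in vegetal masses. The 2 that were higher, gatad2a and mta2, are subunits of the chromatin complex NuRD and had log2 fold changes of 0.77 and 0.38. The call of gatad2a was lost without the clutch block (adjusted p = 0.14) and without animal cap replicate 1 or 2 (0.061 and 0.10).

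POU, TALE, AP-2 and grainyhead TFs leaned to the animal side in number or in level. Of 12 tested POU TFs 6 were higher and 3 lower, against 5 and 4 with library size and 1 and 0 without the clutch block. Pou2f3 (Xetrov90018849), known in skin, had 13.1 and 24.8 TPM in animal caps, against 1.47 and 2.34 TPM in vegetal masses (log2 fold change 3.42, SE 0.25). In contrast pou4f2 (Xetrov90000932), a retinal ganglion cell factor, had 2 and 1 counts in animal caps, against 78 and 5 counts in vegetal masses, at least 1.3-fold lower, and rests mainly on vegetal mass replicate 1. Its adjusted p was 0.099 without that library and 0.26 without animal cap replicate 1. Of 7 tested CP2 and grainyhead TFs 5 were higher (2 without the block) and none was lower. Tfcp2 (Xetrov90006377), the most even of the abundant members, had 112 and 114 TPM in animal caps, against 53.02 and 72.3 TPM in vegetal masses.

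HMG-box TFs had 13 higher and 10 lower of 41 tested, a split that turned to 10 higher and 13 lower with library size and was 4 and 4 without the clutch block. The neural and ectodermal SoxB genes stood on one side, with sox2 (Xetrov90014375) at 179 and 204 TPM in animal caps, against 7.63 and 9.19 TPM in vegetal masses (log2 fold change 4.64, SE 0.18, adjusted p = 3.5e-07). Sox3 (Xetrov90020478) had 938 and 1284 TPM in animal caps, against 247 and 175 TPM in vegetal masses. The SoxF genes sox17a, sox17b.1, sox17b.2 and sox7 were 4 of the 6 enriched in vegetal masses. Forkhead TFs had 8 of 38 called in each direction, or 7 higher and 12 lower with library size, and each side was made up largely of relatives, with foxi and foxd genes and foxh1.2 higher and foxa and foxc genes lower. Foxh1.2 (Xetrov90027470), of the family of Smad partners in Nodal signalling, had 147 and 192 TPM in animal caps, against 7.96 and 11.4 TPM in vegetal masses (log2 fold change 4.27, SE 0.18, adjusted p = 4.4e-07).

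bHLH TFs had 21 higher and 26 lower of 74 tested, both above the share of all genes. The split was 18 and 30 with library size and turned to 8 and 6 without the clutch block. A pair of Hairy/Enhancer-of-split repressors, which act below Notch and other signals, marked the sides. Hes3.1 (Xetrov90018908) had 32.5 and 35.1 TPM in animal caps, against 1.49 and 1.95 TPM in vegetal masses (log2 fold change 4.43, SE 0.26). Hes7.2 (Xetrov90009908) had 18.1 and 32.8 TPM in animal caps, against 149 and 319 TPM in vegetal masses (log2 fold change -3.03, SE 0.12, adjusted p = 2.8e-07, or 0.058 without the clutch block). Of 51 bZIP TFs 11 were higher and 18 lower, against 9 and 19 with library size and 1 and 4 without the clutch block. Xbp1 (Xetrov90003227), a regulator of the secretory pathway, had 632 and 675 TPM in animal caps, against 82.1 and 65.9 TPM in vegetal masses (log2 fold change 3.27, SE 0.14, adjusted p = 3.6e-07). Cebpd (Xetrov90016780), of the C/EBP family, had 2.64 and 1.17 TPM in animal caps, against 14.0 and 21.3 TPM in vegetal masses.

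C2H2 zinc finger TFs, the largest class, had 47 higher and 89 lower of 276 tested, with a median of -0.23, and differed by subfamily. The split of the class was 42 and 115 with library size and 11 and 22 without the clutch block. Subfamilies were counted only in the fit with the block and TMM, so how far their splits depend on these choices was not tested. Of 21 Krueppel-like and Sp factors 9 were higher and 3 lower. Klf17 (Xetrov90011845) had 622 and 744 TPM in animal caps, against 148 and 143 TPM in vegetal masses. Of 38 BTB-domain (Zbtb) factors 5 were higher and 16 lower, and none was enriched 2-fold in animal caps while 13 were enriched in vegetal masses. Of 78 C2H2 TFs without a gene name 6 were higher and 27 lower, and of 65 numbered znf genes 12 were higher and 16 lower. The unnamed Xetrov90015439 had 0 counts in both vegetal masses and 4.17 and 44.0 TPM in animal caps, at least 8.63-fold higher, with unequal clutches. Prdm9 (Xetrov90029550), a histone methyltransferase of meiosis in mammals, had the smallest p of the class on the animal side. It had 117 and 259 TPM in animal caps, against 26.7 and 73.4 TPM in vegetal masses (log2 fold change 2.11, adjusted p = 2.9e-06, or 0.27 without the clutch block).

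Ets TFs had 7 higher and 5 lower of 14 tested, against 6 and 6 with library size and 2 and 2 without the clutch block. Elf1 (Xetrov90006115) had 12.8 and 21.7 TPM in animal caps, against 1.19 and 1.17 TPM in vegetal masses (log2 fold change 3.90, SE 0.25). Etv2 (Xetrov90027763), a master regulator of blood and endothelium, had at most 2 counts in either animal cap and 15.0 and 11.2 TPM in vegetal masses, at least 17.7-fold lower in animal caps. Its level was highest in a marginal zone and not in the vegetal mass. Of 17 ARID TFs, many of them chromatin proteins, 5 were higher and 1 lower (none without the clutch block), none of them in the enriched lists, and kdm5c (Xetrov90019917), a histone demethylase, had a log2 fold change of 0.87. In the E2F class the cell cycle factor e2f1 (Xetrov90025429) stood out, at 12.6 and 4.26 TPM in animal caps, against 98.2 and 41.4 TPM in vegetal masses (log2 fold change -2.97, SE 0.16, adjusted p = 1.7e-06, or 0.073 without the clutch block). Rfx2 (Xetrov90001535), known for ciliated cells, had 135 and 158 TPM in animal caps, against 52.6 and 23.1 TPM in vegetal masses. Nuclear receptors had 4 higher and 5 lower of 34, below the share of all genes in both directions.

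Several families were divided between the poles. The families below were picked after their values were seen. Of the AP-2 genes, tfap2a (Xetrov90016561) had 531 and 854 TPM in animal caps, against 43.0 and 32.5 TPM in vegetal masses, while tfap2e (Xetrov90004913) had 1.42 and 0.760 TPM in animal caps, against 33.2 and 23.5 TPM in vegetal masses. Their log2 fold changes were 4.23 and -4.52 (SE 0.33 and 0.34), and tfap2c was on the side of tfap2a and tfap2b on that of tfap2e. The level of tfap2e in its richer region was far below that of tfap2a.

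The TALE homeobox genes irx2 and irx3, of the Iroquois family of neural prepattern genes, lay on opposite sides. Irx2 (Xetrov90015965) had 101 and 142 TPM in animal caps, against 11.5 and 12.7 TPM in vegetal masses, and irx1, with a log2 fold change of 1.14, was on its side. Irx3 (Xetrov90011248) had 4.29 and 3.78 TPM in animal caps, against 88.0 and 72.1 TPM in vegetal masses.

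Zic genes, zinc finger factors of the neural plate, were divided by gene. Zic1 (Xetrov90014780) had 282 and 317 TPM in animal caps, against 77.8 and 95.7 TPM in vegetal masses. Zic2 (Xetrov90006003) had 65.5 and 53.3 TPM in animal caps, against 263 and 221 TPM in vegetal masses, and zic5 was also lower, with log2 fold changes of -1.89 and -2.33. Zic1 was higher in the dorsal marginal zone, with a mean of 481 TPM, than in either pole. In the Klf family klf6 (Xetrov90015619) had 14.5 and 9.29 TPM in animal caps, against 84.4 and 64.0 TPM in vegetal masses, opposite to klf2, klf5, klf11 and klf17. Of the Smads, which carry TGF-beta signals, the common partner smad4.1 (Xetrov90003776) had a log2 fold change of 1.43 and the receptor-activated smad3 (Xetrov90003794) one of -0.86. These directions held with library size in place of TMM.

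TFs took a similar share of all TPM in both regions. The share was 5.73% and 6.02% in animal caps, against 6.47% and 6.29% in vegetal masses, lower in the animal cap by 0.732 and 0.263 percentage points in clutches 1 and 2. An exact permutation test of 2 against 2 libraries cannot go below p = 0.33 (two-sided), which is its value here. The composition of this share differed more than its size. TFs enriched in animal caps took 1.56% and 1.89% of TPM there, against 0.498% and 0.507% in vegetal masses. TFs enriched in vegetal masses took 0.190% and 0.125% in animal caps, against 2.25% and 2.37% in vegetal masses. These sets were chosen on the same levels, so their shares are a description. The animal set took 3.13 and 3.72 times as much in the animal cap as in the vegetal mass of clutches 1 and 2, and the vegetal set 11.9 and 19.0 times as much in the vegetal mass as in the animal cap.

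A few genes carried much of these shares. Hmgb3, pou5f3.2, sox3, foxi3.2 and tfap2a gave 55.1% of the TPM of the 92 animal TFs. Mixer, vegt, sox17a, foxa4 and mix1 gave 45.8% of the TPM of the 188 vegetal TFs. Genes with means under 10 TPM were 33 of the 92 and 75 of the 188, but took 0.777% and 1.54% of the TPM of their lists. Counting TFs down from the most abundant, 31 and 23 TFs made up 50% of the TF TPM in animal caps, against 40 and 29 in vegetal masses. Replicate 1 needed more TFs than replicate 2 in both regions.

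By class, the share of TPM was lower in both animal caps than in both vegetal masses for 6 of the 36 classes with 3 or more tested members, higher for 15 and overlapping for 15. A class without overlap has p = 0.33 in the exact permutation test, so these counts are a description. Of all single genes tested, both animal caps lay below both vegetal masses for 27.0% and above for 17.2%. Homeobox TFs took 0.268% and 0.261% in animal caps, against 1.14% and 1.21% in vegetal masses, 4.26 and 4.63 times as much in vegetal masses. T-box TFs took 0.0280% and 0.00891% in animal caps, against 0.346% and 0.356% in vegetal masses, and vegt alone gave 77.2% of the vegetal share. GATA TFs took 0.0557% and 0.0415% in animal caps, against 0.214% and 0.185% in vegetal masses.

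HMG-box TFs took the largest share of any class in animal caps, 1.34% and 1.54%, against 1.01% and 1.15% in vegetal masses. The AP-2 class took 0.109% and 0.158% in animal caps, against 0.0162% and 0.0119% in vegetal masses, and the CP2 and grainyhead class 0.0703% and 0.0720% in animal caps, against 0.0141% and 0.00970% in vegetal masses. POU TFs took 0.326% and 0.420% in animal caps, against 0.213% and 0.218% in vegetal masses. Forkhead shares overlapped, at 0.184% and 0.195% in animal caps, against 0.194% and 0.170% in vegetal masses, though foxi3.2 gave 56.5% of it in animal caps and foxa4 gave 59.6% in vegetal masses. C2H2 TFs, with far more genes, took 1.17% and 1.13% in animal caps, against 1.37% and 1.18% in vegetal masses. The bZIP share was higher in animal caps, at 0.206% and 0.216% against 0.160% and 0.147% in vegetal masses, although more of its members were lower, and xbp1 gave 31.0% of it in animal caps.

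**Figure D4:**
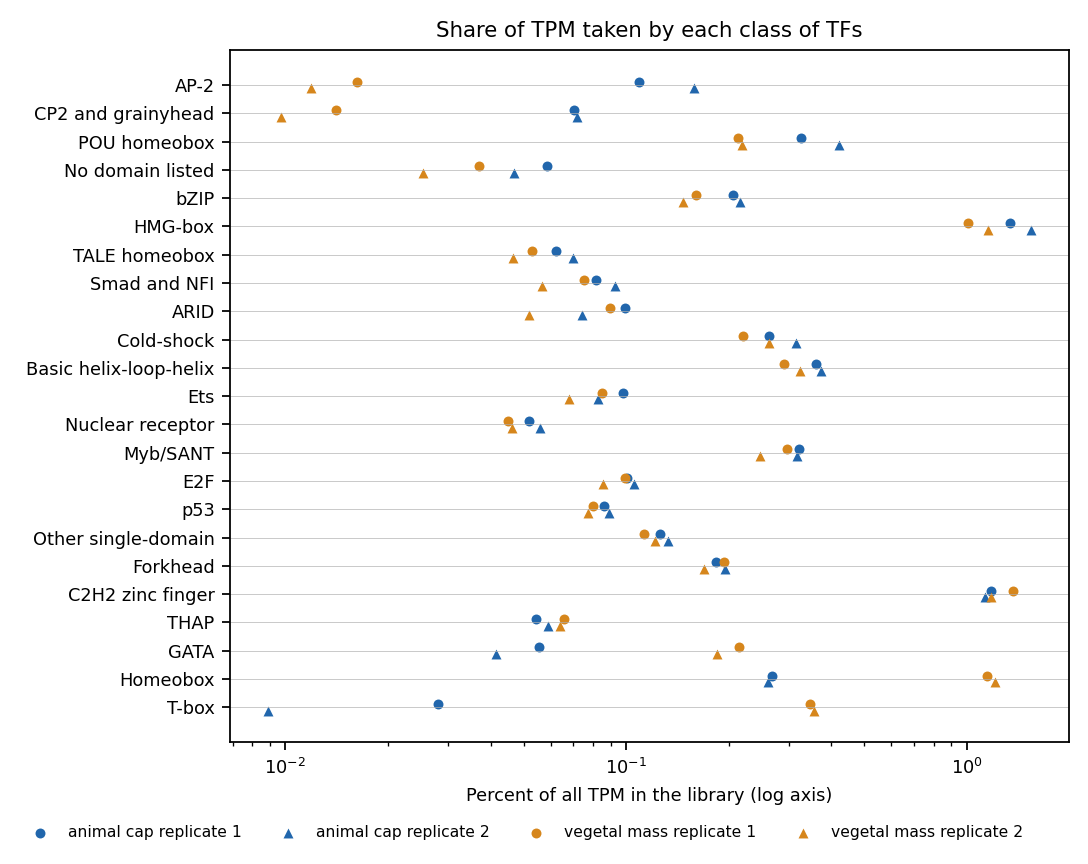
Percent of all TPM taken by each class of TFs (log axis) in animal caps (blue) and vegetal masses (orange), with replicate 1 as circles and replicate 2 as triangles. Shown are classes with 3 or more tested members and a mean of at least 0.05% in a region, ordered by the ratio of the means. The AP-2 class lies furthest to the animal side and the T-box class furthest to the vegetal side.

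The marginal zones between the poles held intermediate levels of most enriched TFs. As the mean of the 3 zones, the TFs enriched in animal caps had a median of 65.1% of their animal cap level (quartiles 40.7% and 85.1%). The TFs enriched in vegetal masses had a median of 40.3% of their vegetal level (quartiles 21.97% and 52.1%). The zones lay between the poles for 77 of the 92 and 169 of the 188. The animal cap was the highest of the 5 regions for 71 of the 92, and the vegetal mass for 165 of the 188. These are descriptions with no test. Both lists were chosen for a 2-fold or larger difference between the poles, which favours a pole as the highest region. The same counts over all genes that met these limits are not given, so nothing particular to TFs is read from them.

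The other 21 of the 92 were highest in a marginal zone, and not in the animal cap, among them pou5f3.2, prdm9, zic1 and irx1. Of the 188 vegetal TFs 23 were highest in a marginal zone, among them foxa4, etv2, msgn1, gsc and t. Among the animal TFs, sox2 had means of 344 TPM in the dorsal and 277 TPM in the lateral marginal zone, above the animal caps. The trunk genes cdx4 (Xetrov90020390) and hoxd1 (Xetrov90024227) were named after their values were seen. Cdx4 had 14.1 and 3.27 TPM in animal caps, against 4.82 and 2.82 TPM in vegetal masses, and a mean of 115 TPM in the ventral marginal zone. Hoxd1 had 18.9 and 3.05 TPM in animal caps, against 4.24 and 2.66 TPM in vegetal masses, and a mean of 96.6 TPM in the ventral marginal zone. In both genes animal cap replicate 2 was within or near the range of the vegetal masses, and replicate 1 was above it. Replicate 1 was also the animal cap with the higher summed level of mesoderm TFs, much of which came from the gene not. The part of carried-over tissue in these genes was not tested.

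In the zones, 14 of the 92 animal TFs were detected and at least 2-fold higher dorsally than ventrally in both clutches, among them lhx5, prdm14, zic1, irx1 and irx2. A further 14 were at least 2-fold higher ventrally, among them dlx3, dlx5, grhl1, grhl3, tfap2a, tfap2c and tp63. The ventral group also held hoxd1, cdx4, klf2, klf5 and klf17, and the dorsal group foxj1 and ascl2. Of all genes tested, 2.12% were higher dorsally and 1.32% ventrally by this limit, and of all genes enriched in animal caps 3.61% and 3.88%. Among all TFs tested, 6.45% were higher dorsally and 4.59% ventrally. Of the 188 vegetal TFs 27 were higher dorsally in this way, among them foxa4, gata4, hhex and low-level homeobox genes such as six6, rax and nkx2-2. A further 13 were higher ventrally, among them tbx2, tbx3, msgn1 and ventx1.2. Of all genes enriched in vegetal masses 7.36% were higher dorsally and 1.79% ventrally.

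**Figure D5:**
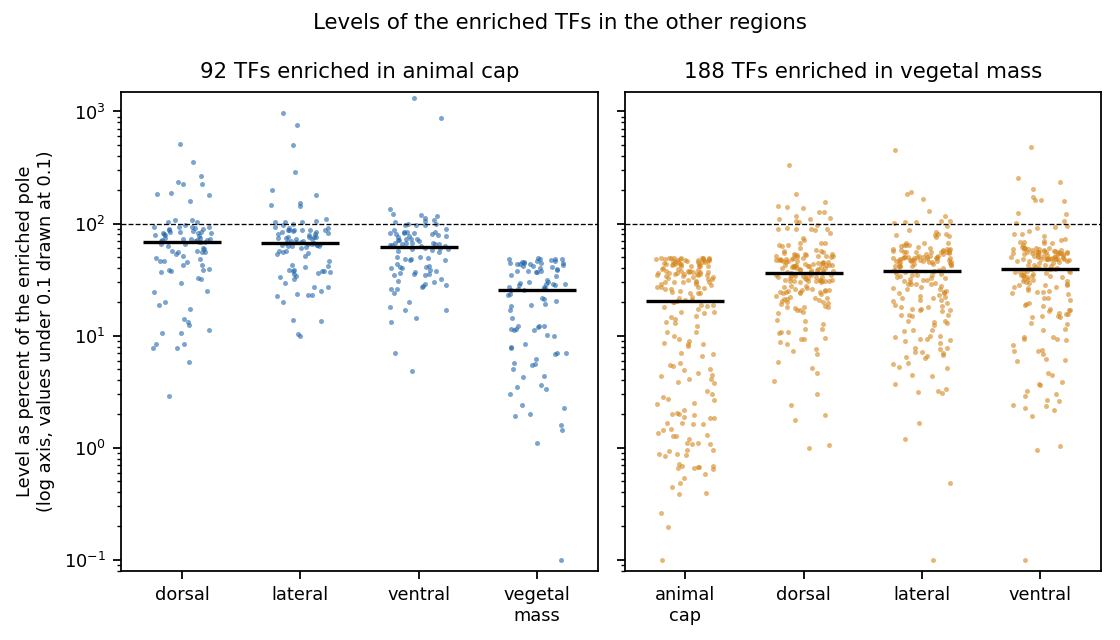
Mean level of each enriched TF in the other regions as a percent of its mean at the pole where it is enriched (log axis, values under 0.1 drawn at 0.1), for 92 animal (left) and 188 vegetal (right) TFs. Points are TFs, bars are medians and the dashed line marks the level at that pole. Medians of the marginal zones are 61.8% to 68.4% for animal TFs and 36.0% to 39.7% for vegetal TFs, and the opposite pole was under 50% by the choice of the lists.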

How the data were processed

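PolyA+ RNA was sequenced by the authors as 50-bp single end reads from non-stranded libraries and mapped with RSEM v1.2.12 (as also named in the submitters' processing notes) to gene models of the X. tropicalis v9.0 assembly. The authors deposited an expected count per gene and library, which is RSEM's estimate and need not be whole. They also deposited a TPM value, the count corrected for transcript length and scaled to a fixed total. RSEM shares reads among near-identical genes, and without strand overlapping and antisense genes cannot be told apart, so copies such as the bix1, pou5f3 and ventx genes are uncertain.

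Expected counts were rounded and fitted for the 10 region libraries in edgeR 4.0.16 (TMM, its filter on low counts, robust quasi-likelihood test, replicate number as a block) in R 4.3.3, with Benjamini-Hochberg adjustment over all genes tested and a threshold of 0.05. The study called differences with EBSeq, in place of which edgeR was used. The clutches come from the study's methods. Deviations of same-numbered libraries from their region means correlated across genes at 0.613 to 0.784 over 10 pairs of regions, and at 0.613 for animal cap and vegetal mass. With 2 clutches, p-values measure the spread between these libraries only. Where both libraries of a region held 3 counts or fewer, folds against that region are lower bounds at 3 counts, which cover counting error only.

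TFs, names and Pfam domains came by identifier from the study's catalogue, 26 TFs were classed by family name, and 979 carry a curators' name. The members, gene lists and tests were chosen with earlier results of these data known. Named genes are the 8 named TFs with the largest fold change in each direction (at least 1 TPM, same sign in both clutches), the 6 most abundant called TFs in each direction, the called named member with the smallest p in each direction of each class with 5 or more tested members, and 2 to 4 examples of each list. The other genes named were chosen after their values were seen. Some of these genes are not reported here.

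Alternatives were no block, only the 4 libraries, DESeq2 1.42.0, library size, no filter, limma 3.58.1 with log2 levels at a pseudocount of 1 or 0.1 TPM, an adjusted p under 0.01, other TPM limits, other class rules and each library left out. A test of the difference between clutches was added after seeing the data. The fits were tested on simulated data. Tables and plots used Python 3.11.15, pandas 2.3.3, numpy 2.4.6, scipy 1.17.1 and matplotlib 3.10.9.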

Additional observations from a re-analysis of the deposited data

Results flagged for a closer look

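The difference between animal cap and vegetal mass differed between the clutches for 17 of 15727 genes (0.108%) at the 0.05 threshold. The test was a term for that difference in the edgeR model with the clutch block, chosen after seeing the data, and 1880 genes had an unadjusted p under 0.05. Of 915 TFs 4 passed. They were mixer, sox17b.1 (Xetrov90016802), sox17b.2 (Xetrov90016803) and rreb1 (Xetrov90016538).

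Mixer, a named TF, was lower in the animal cap by 6.42 on the log2 scale in clutch 1 and by 8.22 in clutch 2, and the fitted difference between clutches was 1.72 (adjusted p = 0.038, edgeR). Its level was 47.8 and 13.0 TPM in animal caps, against 4494 and 4345 TPM in vegetal masses. Sox17b.1 had 9.45 and 2.22 TPM in animal caps, against 445 and 632 TPM in vegetal masses (difference between clutches 2.95, adjusted p = 0.017, edgeR). The direction was the same in both clutches for these genes and for sox17b.2. Rreb1 had 29.7 and 22.1 TPM in animal caps, against 41.3 and 8.58 TPM in vegetal masses, with opposite signs in the clutches, and was not called between regions. Animal cap replicate 1 had the higher summed level of endoderm TFs, 465 TPM against 207 TPM in replicate 2, and its part in these differences was not tested.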

How the results depend on the processing

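None of the 85 called TFs named by the rule reversed direction in an alternative that tested it. Of these, 48 kept their side of the threshold in every such alternative. With only the 4 libraries 76 kept it and 8 lost it, and the remaining gene has no result there. The clutch block mattered most. With no replicate block 573 genes were higher and 692 lower, TFs numbered 53 and 91, and the enriched lists held 45 and 89. With only the 4 libraries of both regions, 1960 genes were higher and 2186 lower. The limit of 0.01 on the adjusted p gave 1993 genes higher in animal caps and 2216 genes lower in animal caps. A TPM ratio of at least 4 left 45 animal and 103 vegetal TFs, at least 10 TPM left 59 and 113, and no limit on the ratio gave 187 animal TFs. Leaving out 1 library at a time gave 1993 to 3454 genes higher, 2217 to 3490 lower, 135 to 248 TFs higher, 194 to 266 lower, and 78 to 134 animal and 147 to 208 vegetal enriched TFs. The fewest genes higher came without animal cap replicate 1 and the fewest lower without animal cap replicate 2, and the lone library left is then assumed to vary like the other regions. The TF share of expected counts was 6.48% in animal caps and 6.93% in vegetal masses, and without the HMG-box and cold-shock classes the share of TPM was 4.15% and 5.05%. Each clutch alone gave 5.73% to 6.02% in animal caps and 6.29% to 6.47% in vegetal masses. Depth limits genes near 3 counts in a library.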
